A study of Drosophila melanogaster with 4 samples.

Results

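The 64 genes described here encode proteins of the mitochondrial ribosome. They are all genes on the array that have a probe set carrying a single symbol that starts with mRpL (43 genes of the large subunit) or mRpS (21 genes of the small subunit), out of 10844 genes with such a probe set. Each gene is represented by the probe set with the highest mean log2 signal over all 4 arrays. Within the set, genes were taken by symbol and not by measured ratio. The set itself was chosen with earlier results of these data known. LARK, an RNA-binding protein of the circadian output pathway, was immunoprecipitated (IP) from lysates of brains of Canton-S wild-type Drosophila melanogaster at the pharate adult stage, just before the fly leaves its pupal case. Each of 2 experiments gave 1 LARK IP array and 1 total RNA array from the same pooled lysate, so that each group held 2 samples and all samples shared genotype, stage and tissue. Washes after the precipitation were mild by the study's methods, and no precipitation with a control antibody was analysed here.

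The mitochondrial ribosome makes the few proteins that mitochondrial DNA encodes, which are core subunits of the respiratory chain and of ATP synthase. Its small subunit binds the messenger RNA and decodes it, and its large subunit forms the peptide bond. All of its proteins are encoded in the nucleus, translated in the cytosol and imported. Some have a counterpart in the bacterial ribosome, and others were gained in the mitochondrial lineage. The names follow the subunit, with known exceptions: the mammalian proteins that correspond to mRpS18A and mRpS30 sit in the large subunit. Neurons depend heavily on respiration, so these transcripts are part of the basic equipment of brain cells.

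The question put to these genes was whether their messenger RNAs took a larger or a smaller share of the RNA precipitated with LARK than of the total RNA. No mitochondrial ribosomal protein gene differed between LARK IP and total RNA in the test across probe sets. A total of 30 of the 64 genes (46.9%) were bright enough to be tested, which means that their probe set was among the 25% with the highest mean log2 signal; of all genes, 2884 of 10844 (26.6%) were. Of the 30, 0 were higher and 0 were lower in the IP by limma with Benjamini-Hochberg adjustment, and 0 had an unadjusted p under 0.05 in either direction, where 326 of all 2884 tested genes (11.3%) did. Over all 3492 tested probe sets, 2.69% were called higher in the IP and 0.172% lower. At those shares, 0.808 of 30 genes would be called higher and 0.0515 lower, so a count of 0 is near the background and sets these genes apart in neither direction. The lowest adjusted p among the 30 was 0.592, that of mRpL1.

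Signals are MAS5 intensities scaled to the same mean on each array, so each is a share of its array's signal. They were low for many of these genes, although above the background given below more often than over all probe sets. The 30 tested genes had signals from 1.6 to 34.9, against median signals of 2.7 to 2.8 over each whole array and a background of 4.49. This background is the 95th percentile of the signals of 23 control probe sets for bacterial, mouse and yeast transcripts. Over all 64 genes, 149 of 256 signals (58.2%) were above it, where 35.0% to 37.1% of all probe sets were on each array. Among the tested genes 20 of 30 were above it on all 4 arrays. The other 10 each had 1 signal at or under it, which was in total RNA 2 for 6 genes, in total RNA 1 for 2, and in IP 1 and IP 2 for 1 each. The median signal of the tested genes was 10.05 in IP 1, 8.75 in IP 2, 9.65 in total RNA 1 and 6.95 in total RNA 2. It was thus higher in the IP than in the total RNA of the same experiment in both experiments, by less than it differed between the experiments in the total RNA.

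**Figure D1:**
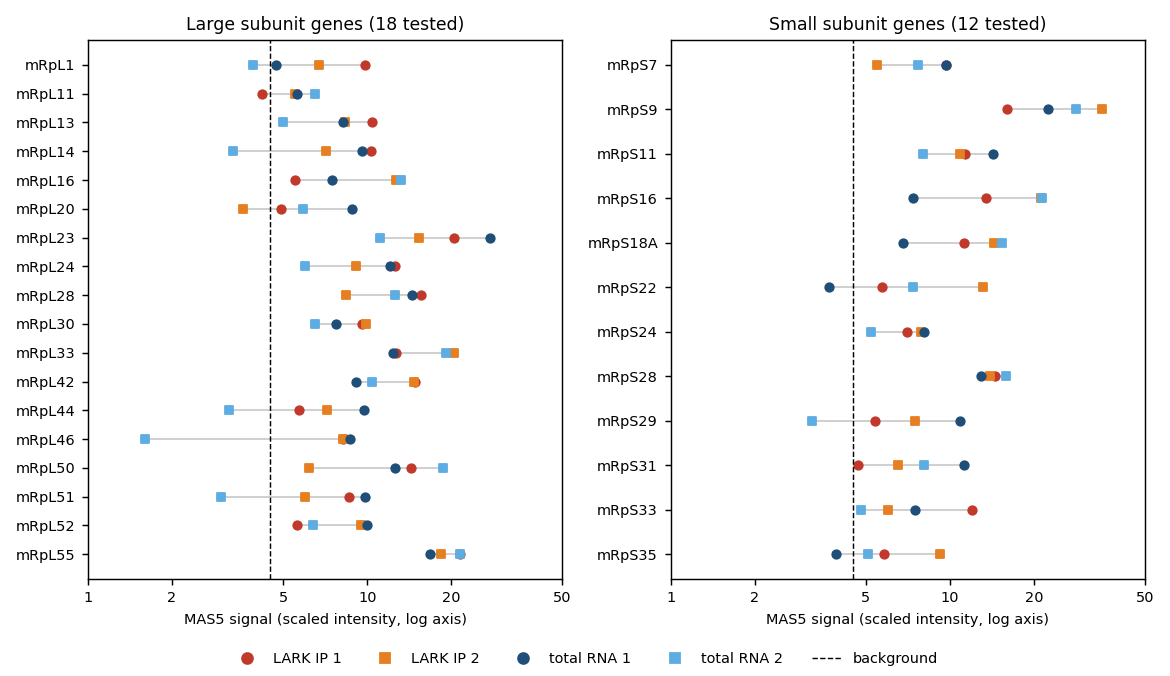
MAS5 signal (scaled intensity, log axis) of each tested gene of the large subunit (18, left) and of the small subunit (12, right) on the 4 arrays. Circles are replicate 1, squares are replicate 2, and the dashed line is the background of 4.49; the symbols of IP (red, orange) and total RNA (blue) overlap in 22 of the 30 genes, and mRpL1, mRpL14, mRpL44, mRpL46, mRpL51 and mRpS29 are below the background in total RNA 2 alone.

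In the large subunit, the protein that mRpL1 (CG7494) encodes belongs to the family that forms the mobile stalk beside the exit site of the transfer RNA in bacteria. Its signal was 9.8 and 6.7 in the IP and 4.7 and 3.9 in the total RNA of replicates 1 and 2. Both IP signals lay above both total RNA signals, 1 of which was under the background. The mean log2 ratio of IP over total RNA was 0.81 (SE 0.51, n = 2 pairs, limma adjusted p = 0.592). mRpL42 (CG12921), which has no bacterial counterpart, had closer replicates: 14.8 and 14.7 in the IP and 9.1 and 10.4 in the total RNA. All 4 signals were above the background and the groups did not overlap, with a mean log2 ratio of 0.56 (SE 0.36, limma adjusted p = 0.600). mRpL13 (CG10603), a protein with a bacterial counterpart, read 10.4 and 8.3 in the IP and 8.2 and 5.0 in the total RNA, a mean log2 ratio of 0.48. mRpL30 (CG7038), also of bacterial ancestry, read 9.6 and 9.9 in the IP and 7.7 and 6.5 in the total RNA, a mean log2 ratio of 0.42. In these last 3 genes the IP was higher by a factor between 1.25 and 1.66 in each replicate, which did not pass the test in any of them.

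The highest mean ratio among the 30 tested genes belonged to mRpL46 (CG13922), a protein of the mitochondrial lineage, and it rested on 1 array. Its signal was 8.2 in both IP samples, 8.7 in total RNA 1 and 1.6 in total RNA 2. The log2 ratio was therefore -0.08 in replicate 1 and 1.91 in replicate 2, with a mean of 0.91 (SE 0.61, limma adjusted p = 0.625). mRpL14 (CG14048), whose counterpart in bacteria lies at the interface with the small subunit, had the same shape: 10.3 and 7.1 in the IP, 9.6 in total RNA 1 and 3.3 in total RNA 2. Its log2 ratio was 0.09 in replicate 1 and 0.95 in replicate 2. In both genes the total RNA 2 signal was under the background, and replicate 1 alone showed nearly equal IP and total RNA.

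At the other end of the tested large subunit genes, mRpL20 (CG11258) encodes the counterpart of a bacterial protein needed early in the assembly of the large subunit. It read 4.9 and 3.6 in the IP and 8.8 and 5.9 in the total RNA. The groups did not overlap, and the IP 2 signal was under the background. The 2 log2 ratios were -0.75 and -0.61, and their mean was -0.68 (SE 0.52, limma adjusted p = 0.679). mRpL50 (CG8612), without a bacterial counterpart, had a similar mean of -0.65 from unequal replicates, with 14.3 and 6.2 in the IP and 12.6 and 18.7 in the total RNA. Here IP 1 was above total RNA 1 and IP 2 was far below total RNA 2, with log2 ratios of 0.17 and -1.48. Set against the mean of both total RNA samples, and so not paired by lysate, the ratio was -0.10 for IP 1 and -1.21 for IP 2. mRpL11 (CG3351), the counterpart of a bacterial protein at the base of the factor-binding stalk, read 4.2 and 5.5 in the IP and 5.6 and 6.5 in the total RNA, a mean log2 ratio of -0.28. Its IP signals were just below both total RNA signals, and IP 1 was under the background. The remaining negative ratios among the tested large subunit genes were small: mRpL16 (CG3109), a neighbour of the peptidyl transferase centre in bacteria, had a mean of -0.23, mRpL28 (CG3782) of -0.22 and mRpL52 (CG1577) of -0.12, and all 3 had overlapping groups.

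Among the 12 tested genes of the small subunit, mRpS22 (CG12261) and mRpS35 (CG2101), both proteins of the mitochondrial lineage, had the highest ratios, and in each the total RNA 1 signal was under the background. mRpS22 read 5.7 and 13.1 in the IP and 3.7 and 7.4 in the total RNA. The IP exceeded the total RNA of its own lysate in both experiments, with log2 ratios of 0.53 and 0.76, although the groups overlapped because both samples were higher in replicate 2. Set against the mean of both total RNA samples, and so not paired by lysate, the ratio of mRpS22 was 0.10 for IP 1 and 1.19 for IP 2. mRpS35 read 5.8 and 9.2 in the IP and 3.9 and 5.1 in the total RNA, with log2 ratios of 0.49 and 0.76 and no overlap. The limma adjusted p was 0.655 for mRpS22 and 0.714 for mRpS35. mRpS33 (CG10406) read 12 and 6 in the IP and 7.5 and 4.8 in the total RNA, a mean log2 ratio of 0.45 with overlapping groups.

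The lowest ratio among all tested genes was that of mRpS31 (CG5904), a small subunit protein of the mitochondrial lineage. It read 4.7 and 6.5 in the IP and 11.2 and 8.1 in the total RNA. Both IP signals were lower than both total RNA signals, by a log2 ratio of -1.13 in replicate 1 and -0.29 in replicate 2, with a mean of -0.71 (SE 0.47, limma adjusted p = 0.625). mRpS7 (CG5108), whose bacterial counterpart starts the assembly of the small subunit head, read 9.7 in both samples of replicate 1, and 5.5 in IP 2 against 7.7 in total RNA 2. mRpS29 (CG3633), the fly counterpart of the mammalian GTP-binding protein DAP3, showed how far the replicates could part: 5.4 in IP 1 against 10.9 in total RNA 1, and 7.5 in IP 2 against 3.2 in total RNA 2. Its log2 ratio was -0.92 in the first experiment and 1.05 in the second, leaving a mean of 0.07.

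The brightest genes, for which the arrays were most precise, had ratios close to 0. mRpS9 (CG2957), whose bacterial counterpart reaches the transfer RNA in the peptidyl site, read 16 and 34.9 in the IP and 22.5 and 28.3 in the total RNA, a mean log2 ratio of -0.09 (95% interval -0.77 to 0.59). mRpL55 (CG14283), a mitochondrial addition, read 21.4 and 18.3 in the IP and 16.8 and 21.5 in the total RNA, a mean of 0.06 (95% interval -0.64 to 0.76). Both intervals exclude a 2-fold difference in either direction. mRpL23 (CG1320), found at the exit of the peptide tunnel in bacteria, read 20.5 and 15.3 in the IP and 27.5 and 11.1 in the total RNA, a mean of 0.01. mRpL33 (CG3712) read 12.7 and 20.4 in the IP and 12.4 and 19.1 in the total RNA, a mean of 0.06. In mRpL33 the IP followed the total RNA of its own lysate to within a factor of 1.07, and both were higher in the second lysate. mRpS28 (CG5497) stayed between 12.9 and 15.9 on all 4 arrays, a mean of -0.01. mRpS16 (CG8338) was the exception among these 6, with 13.5 against 7.4 in experiment 1 and 21.2 against 21.4 in experiment 2, a mean of 0.39 (95% interval -0.41 to 1.20).

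**Figure D2:**
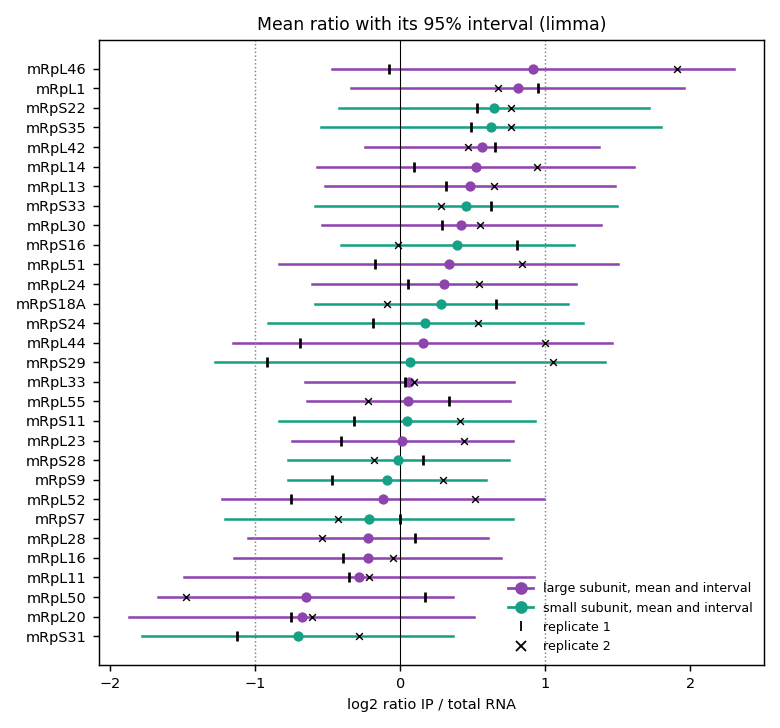
Mean log2 ratio of IP over total RNA for the 30 tested genes, ordered by the mean (points), with the 95% interval from limma (lines) and the ratio of each replicate (bar, replicate 1; cross, replicate 2). All 30 intervals include 0, all 30 means lie between -0.71 and 0.91, and 6 intervals lie wholly between the dotted lines at -1 and 1, which mark a 2-fold difference.

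The intervals show how large a difference these arrays left possible. The median half-width of the 95% interval, which is not adjusted for the number of probe sets, was 1.01 on the log2 scale. The adjusted test asks for more than an interval that excludes 0. The interval lay within 2-fold in either direction for 6 of the 30 genes, and within 4-fold for 29 of them, mRpL46 being the exception. For the other 24 genes a 2-fold difference in at least 1 direction was not excluded. A stricter description without a test asked for a ratio of at least 2 in both replicates. Of the 18 genes whose signals were high enough for it in both IP samples (top 25% of each array), 0 reached it, where 7.09% of eligible probe sets did. Of the 15 genes with high enough signals in both total RNA samples, 0 were at least 2-fold lower in the IP, where 2.93% of eligible probe sets were.

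The separation of the groups in the raw signals gave the same picture. Both IP signals lay above both total RNA signals in 5 of the 30 tested genes (16.7%), and 15.4% of all tested probe sets had this order. The 5 were mRpL1, mRpL13, mRpL30, mRpL42 and mRpS35. Both IP signals lay below both total RNA signals in 3 genes (10%), mRpL11, mRpL20 and mRpS31, where 17.4% of all tested probe sets had this order. In the other 22 genes the groups overlapped. The share above was near the background, and the share below was 3 genes where the background share corresponds to about 5 of 30.

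As a group, the tested genes lay slightly above 0. Their median log2 ratio was 0.11, against -0.04 for all tested genes. The median was 0.04 in replicate 1 and 0.42 in replicate 2. With both IP samples set against total RNA 1 alone, and so not paired by lysate, it was -0.09. A total of 20 genes had a positive mean and 10 a negative one. Both replicates were positive in 10 genes (33.3%, against 26.3% of all tested genes), both were negative in 4 (13.3%, against 31.2%), the signs were opposite in 15, and mRpS7 had a ratio of exactly 1 in replicate 1. The 18 large subunit genes and the 12 small subunit genes had nearly the same median, 0.11 and 0.12. In replicate 2 the median was 0.49 for the large and 0.29 for the small subunit. The 18 genes with a bacterial counterpart had a median of 0.05, and the 12 without one of 0.24, each inside the range of the other. The SD of the ratios was 0.42, against 0.66 over all tested genes, 0.36 for the cytosolic ribosomal proteins and 0.39 for the respiratory chain, and all 30 means were within 1 of 0, as were 89.5% of all tested genes.

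**Figure D3:**
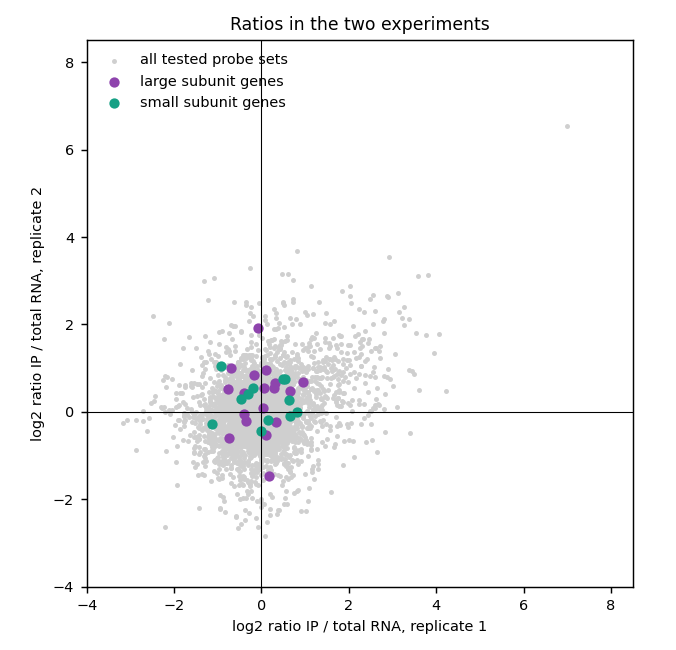
Log2 ratio of IP over total RNA in replicate 1 (horizontal) and in replicate 2 (vertical) for all 3492 tested probe sets (grey), the large subunit genes (purple) and the small subunit genes (green). The 30 genes lie within the central cloud, with 15 of them in the quadrants of opposite sign and none near the high ratios at the upper right.

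The ratios of the experiments were unrelated to each other across these genes. Across the 30 genes, the log2 ratio of replicate 1 and that of replicate 2 had a Pearson correlation of -0.001 and a Spearman correlation of 0.01, while across all 3492 tested probe sets the values were 0.29 and 0.22. These are descriptions across genes, which share arrays and are not independent replicates. The difference between lysates was as large as that between IP and total RNA. The median absolute log2 ratio of IP over total RNA was 0.38 in replicate 1 and 0.53 in replicate 2, and the median absolute difference was 0.43 between the IP samples and 0.58 between the total RNA samples. The mean ratio was larger than the gene's own average replicate difference in 8 of 30 genes (26.7%), and in 32.9% of all tested probe sets.

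Part of the difference between lysates was shared by IP and total RNA. Summed over the 43 large subunit genes, the signal was 302.9 in IP 1 and 284.0 in total RNA 1, but 231.6 in IP 2 and 228.1 in total RNA 2. Summed over the 21 small subunit genes, it was 143.6 in IP 1 and 149.4 in total RNA 1, and 173.2 in IP 2 and 161.7 in total RNA 2. The large subunit sum was thus lower, and the small subunit sum higher, in both samples of the second lysate. The rise of the small subunit sum leaned on mRpS9 and mRpS16. From replicate 1 to replicate 2, mRpS9 went from 16 to 34.9 in the IP and from 22.5 to 28.3 in the total RNA. mRpS16 went from 13.5 to 21.2 and from 7.4 to 21.4. Gene by gene, 8 of the 18 tested large subunit genes (44.4%) were lower in replicate 2 in both IP and total RNA and 3 (16.7%) were higher in both. For the small subunit 3 of 12 (25.0%) were lower in both and 5 (41.7%) were higher in both. Over all tested probe sets the shares were 30.4% and 32.1%. Of the 9 untested small subunit genes in the sum, 5 (55.6%) were lower in both and 1 (11.1%) was higher in both. Of the 25 untested large subunit genes, 10 (40%) were lower in both and 1 (4%) was higher. Over all untested probe sets the shares were 23.2% and 24%. The replicate difference of the IP and that of the total RNA had a Pearson correlation of 0.37 across the 30 genes and 0.36 across all tested probe sets. Lysate and scanning day shared the replicate number and cannot be told apart, nor, between lysates, can fewer cells of a type and less RNA per cell, and with 1 lysate for each number the difference was not tested.

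**Figure D4:**
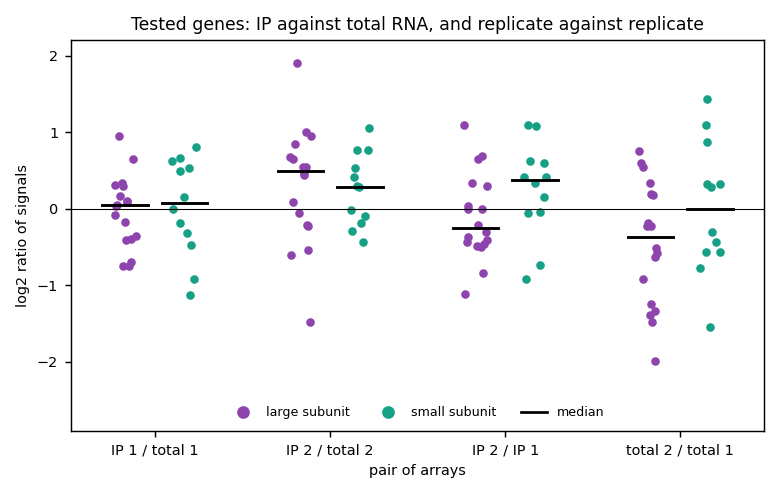
Log2 ratios of the tested genes for 4 pairs of arrays: IP over total RNA within each replicate (left) and replicate 2 over replicate 1 within each group (right), with the large subunit in purple, the small subunit in green and medians as black lines. The points spread as widely between replicates as between IP and total RNA; the large subunit medians of the replicate pairs are -0.26 (IP) and -0.37 (total RNA), and those of the small subunit are 0.37 and -0.01.

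The other 34 genes, 25 of the large and 9 of the small subunit, were too dim to test. Their signals ran from 0.3 to 9.5, 12 genes were at or under the background on all 4 arrays, and 0 were above it on all 4. In 3 of them (8.82%) both IP signals exceeded both total RNA signals, and in 6 (17.6%) both were below, where 14.5% and 16.1% of all untested probe sets had these orders. mRpL19 (CG8039), whose bacterial counterpart lies at the subunit interface, read 7.6 and 3.7 in the IP and 2.0 and 0.7 in the total RNA. Only IP 1 was above the background, and no fold is given. mRpL3 (CG8288), the counterpart of a bacterial protein at the peptidyl transferase centre, went the other way, with 0.9 and 0.7 in the IP and 2.6 and 6.7 in the total RNA. Only total RNA 2 was above the background, and again no fold is given. mRpL19 and mRpL3 were the only genes of the 64 with ratios of at least 2 in both replicates, in opposite directions, when no minimum was set on the signal. mRpS6 (CG15016), a platform protein of the small subunit in bacteria, read 5.0 and 7.6 in the IP and 2.1 and 4.7 in the total RNA, also without overlap.

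For 2 genes the array held a pair of probe sets. Those of mRpL11 gave mean log2 ratios of -0.28 and -0.38. Those of mRpL12 (CG5012), the protein of the stalk that recruits translation factors, disagreed in the signals themselves. One read 9.2 in IP 1, 1.2 in IP 2, 9.5 in total RNA 1 and 1.5 in total RNA 2, while the other read 0.8, 14.9, 1.7 and 4.9 on the same arrays. The first was high in the first lysate and the second in the second lysate, in IP and total RNA alike, and neither was bright enough to test.

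The other genes of mitochondrial gene expression were given by a list of 36 genes, which includes 2 mitochondrial ribosomal proteins with names of their own. Of these 36 genes, 8 were tested, 0 were higher and 0 were lower in the IP by limma, and their median log2 ratio was 0.09. PolrMT, the mitochondrial RNA polymerase, had the largest difference of the 8, with 2.1 and 13 in the IP and 9.9 and 14.9 in the total RNA. The IP was lower in both experiments, chiefly in the first, where its signal was under the background, and the mean log2 ratio of -1.03 did not pass the test (limma adjusted p = 0.480). TFAM, which packages mitochondrial DNA and activates its transcription, read 8.6 and 9.5 in the IP and 6.4 and 5.9 in the total RNA, a mean of 0.50 with no overlap (limma adjusted p = 0.736). The elongation factors mEFTu2 and mEFTs, which bring aminoacyl transfer RNA to the ribosome, had means of 0.11 and 0.06. OXA1L, which inserts the new proteins into the inner membrane, had -0.37. The synthetases PheRS-m and LeuRS-m had 0.16 and -0.03, and bsf, the fly relative of the mammalian RNA-stability factor LRPPRC, had 0.19. The named ribosomal proteins tko, the decoding-site protein behind the bang-sensitive fly mutant technical knockout, and bonsai were too dim to test. tko read 2.1 and 7.0 in the IP and 1.8 and 1.0 in the total RNA, and bonsai 6.0 and 0.5 in the IP and 1.8 and 0.5 in the total RNA.

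Cytosolic ribosomal proteins and the nuclear-encoded respiratory chain were set beside these genes as much brighter lists. The cytosolic list was given by symbol alone (starting with RpL or RpS, or sta). It thus holds RpL24-like and RpL7-like, and the mean log2 ratio of RpL7-like, 1.09, was its highest. The paper counts RpL34 and RpL24 among the putative targets of LARK, and neither was among the tested genes of this list. Of the 37 genes on this list, 30 were tested, with 0 calls in either direction and a median log2 ratio of 0.05. Before adjustment, 3 of them had a p under 0.05 with the IP higher and 3 with the IP lower. Their intervals were narrower, with a median half-width of 0.48 against 1.01 for the mitochondrial ribosomal proteins. Of 72 respiratory chain genes, 54 were tested, with 0 calls and a median of -0.01, and before adjustment 1 had a p under 0.05 with the IP higher and 2 with the IP lower. The medians of these lists differed from that of the mitochondrial ribosomal proteins by less than the 0.27 (SD, n = 2) by which the latter varied between replicates.

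**Figure D5:**
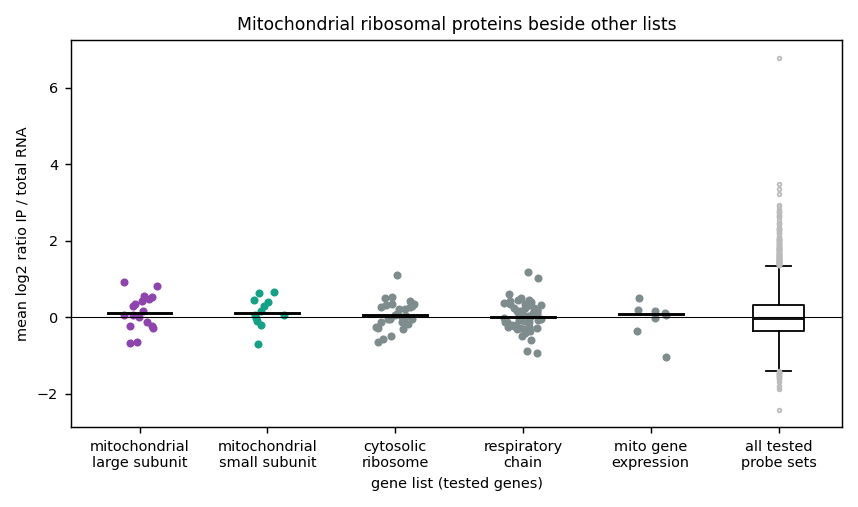
Mean log2 ratio of IP over total RNA for the tested genes of the mitochondrial large (18) and small (12) subunits, cytosolic ribosomal proteins (30), the respiratory chain (54) and mitochondrial gene expression (8), each point a gene and each black line a median, beside a box plot of all 3492 tested probe sets (box, quartiles; whiskers, 1.5 times the interquartile range). All 5 list medians lie between -0.01 and 0.12.

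Some properties of the samples moved with the groups. The ratio of the middle to the 3′ probe set of the GAPDH control transcript was 0.121 and 0.0392 in the IP and 0.175 and 0.142 in the total RNA, lower in the IP in both experiments. The summed signal of the 7 neuronal markers on the array was 90.3 and 162.5 in the IP and 36.3 and 112.1 in the total RNA. The microtubule-associated protein gene futsch gave the most of that sum, with 45.3 and 95.9 in the IP and 10.6 and 52.3 in the total RNA. Only 5 of the 7 were tested, and 1 was called by limma, where 2.69% of all tested probe sets were called higher and 0.172% lower. Of the 7, elav, fne and futsch were higher in the IP in both experiments and Rbp9 and cpo were lower in both. elav, the classic neuronal marker, read 7.0 and 12.7 in the IP and 1.5 and 7.2 in the total RNA, the lowest of which was under the background. The sum of 5 photoreceptor markers was 98 and 160.3 in the IP and 131.5 and 240.4 in the total RNA, lower in the IP in both experiments. That of 4 fat body markers was 15.9 and 14.3 in the IP and 26.9 and 26.2 in the total RNA. Only apolpp of these 4 was bright enough to be tested, and Fbp1 was higher in IP 1 (5.4 against 4.6). The sum of 6 muscle markers was 58.3 and 39.2 in the IP and 55.6 and 40.5 in the total RNA. For 5 haemocyte markers it was 21.5 and 21.9 in the IP and 20 and 18.9 in the total RNA, although 2 of the 5 were lower in the IP in both experiments. The sum of 7 glial markers, 322.6 and 221.3 in the IP and 344.6 and 198.7 in the total RNA, was lower in the first experiment and higher in the second. The part of these differences in the values of the mitochondrial ribosomal protein genes was not tested.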

How the data were processed

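RNA from 2 LARK IP samples and 2 total RNA samples was hybridised to Affymetrix Drosophila arrays. The deposited signal intensity of each probe set was computed by the authors with MAS 5.0 and default settings and scaled to a common mean per array, after equal amounts of RNA were labelled by a one-cycle cDNA and in vitro transcription protocol. MAS5 detection and change columns were not used.

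Controls (44 probe sets) were left out of the tests. Symbols came from the platform annotation (12443 probe sets with 1 symbol, 327 with several, 1196 with none), and all 64 genes matched RefSeq (Release 6), which holds 73 symbols of this form; the other 9 were not analysed here. Probe sets with several symbols named no gene.

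Log2 ratios were taken on log2(signal + 0.8), which understates changes of low signals. The value 0.8 is the median over arrays of the 25th percentile signal. Factors and the 2-fold rule used the plain signals, so they do not convert exactly into the log2 ratios. Probe sets in the top 25% of mean log2 signal were tested with limma 3.58.1 (R 4.3.3; lmFit, eBayes with a trend, replicate block, Benjamini-Hochberg at 0.05). Samples of the same number came from 1 lysate and, per the file headers, were hybridised and scanned on 1 day, hence the block; their deviations correlated with r = 0.36. With 1 residual degree of freedom, the error of each probe set leaned on that of the others (7.84 prior degrees of freedom). The scripts were tested on simulated data. The number of arrays limits the precision.

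Genes named with values were the 8 highest and 8 lowest mean ratios, the 6 brightest, any gene passing limma or 2-fold in both replicates, genes whose probe sets disagreed, and tested genes of the mitochondrial gene expression list. mRpL30, mRpL12, mRpS29, mRpS6, tko and bonsai were named after their values were seen. The gene set and the lists were chosen with earlier results of these data known. Alternatives covered the pseudocount, the filter, normalization, the block, the trend, averaging of probe sets and each array left out. Fits with an array left out had no block.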

Additional observations from a re-analysis of the deposited data

How the results depend on the processing

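The counts of genes passing limma were 0 higher and 0 lower under every alternative that kept all arrays. Without the replicate block they were also 0 and 0, over all probe sets too (94 higher and 6 lower with it), and the median stayed at 0.11; under quantile normalization 11 probe sets were higher and 0 lower, and without the variance trend 1 and 0. The median log2 ratio of the tested genes ranged from 0.03 to 0.15 over the settings that kept all arrays. Over those that left out 1 array it ranged from -0.09 (without total RNA 2) to 0.32 (without total RNA 1); the group median was negative only without total RNA 2. For the large subunit this range was -0.16 to 0.50. With no minimum on the signal, 1 gene (mRpL19) was at least 2-fold higher in both replicates and 1 (mRpL3) at least 2-fold lower.

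Among the named genes, 9 of 64 values with 1 array left out changed sign and 0 of 142 other values did. The fits with 1 array left out had no replicate block, so samples of different lysates were compared. The ratios of mRpL14, mRpL16 and mRpS33 had the same sign in both replicates. Their sign could therefore change only through the comparison across lysates. With each array left out, the ratio ranged from -0.078 to 1.91 for mRpL46, from -0.15 to 1.19 for mRpL14, from -0.0037 to 0.91 for mRpS33, from -0.46 to 0.22 for mRpL52, from -0.58 to 0.15 for mRpS7, from -0.64 to 0.20 for mRpL28 and from -0.77 to 0.32 for mRpL16. Without a change of sign it ranged from 0.10 to 1.19 for mRpS22, from 0.17 to 0.80 for mRpL13, from 0.33 to 0.93 for mRpS35 and from -1.21 to -0.10 for mRpL50. The cause of the differences between arrays was not tested. Restricting to the 22 genes with both total RNA signals above background, chosen after seeing the data, gave 0 calls and a median of 0.03. That restriction acts on the total RNA alone, the denominator of the ratio, so it takes out high ratios by preference. The lower median cannot be read apart from this. Low signal limits all of this: 10 of 30 tested genes had at least 1 signal at or under the background.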
